A study of Mus musculus with 36 samples.

Results

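The genes for the proteins of the cytosolic ribosome were examined in the forebrain of mouse embryos of a *Chd8* allelic series. A gene was included when its mouse symbol began with Rpl or Rps followed by a number and at most a letter and a digit, or was *Rplp0*, *Rplp1*, *Rplp2* or *Rpsa*, when the symbol did not mark a numbered pseudogene, and when it had at least 10 counts per library on average. Of the 46603 genes in the count tables, 88 had such a symbol and 84 passed the minimum at both stages. Among the 84 were 49 genes of the large (60S) and 35 of the small (40S) subunit. The symbols did not mark protein-coding genes alone: 80 were annotated as protein coding, and *Rps4l*, *Rps3a2*, *Rps3a3* and *Rpl6l* as processed pseudogenes, which are copies of an mRNA inserted into the genome.

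Each ribosomal protein occurs in a fixed proportion in its subunit, and mammals normally keep a single intron-containing gene for most of them, together with many silent retrocopies. Their mRNAs start with a run of pyrimidines, the terminal oligopyrimidine (TOP) motif, through which growth signals control their translation. Free RPL5 and RPL11, held together with 5S rRNA, and several other ribosomal proteins bind MDM2, the ubiquitin ligase that keeps p53 low, so that a fault in ribosome assembly can raise p53.

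The E12.5 samples were neocortices of single C57Bl/6J embryos of 4 genotypes, wild type (*Chd8* +/+), heterozygous (*Chd8* +/-), mild hypomorph (*Chd8* neo/neo) and severe hypomorph (*Chd8* neo/-). At E10.5 telencephalic vesicles were taken from control (Ctrl) and conditional knockout (cKO) embryos, with 3 libraries per group. The neo allele keeps a selection cassette between exons 3 and 4 that lowers expression, the null allele lacks exon 3, and *Chd8* neo/- embryos carry 1 of each. In cKO embryos Sox1-Cre removed a floxed exon 3 from the early neuroepithelium, so that vessels, blood and mesenchyme kept *Chd8*; Ctrl embryos were labelled as a mixture of *Chd8* f/f and *Chd8* f/+ genotypes. At E10.5 the RNA of 2 embryos was pooled for a library, and 1 group of *Chd8* +/+ libraries was the control of all 3 mutant genotypes at E12.5.

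Library totals ranged from 38774591 to 61051667 counts for the E12.5 libraries and from 49632937 to 68488879 for the E10.5 libraries. *Chd8* itself was measured at 235 to 240 CPM (counts relative to a TMM-scaled library size) in the wild type, at 165 to 170 in heterozygotes, at 203 to 213 in mild and at 142 to 158 in severe hypomorphs, and at 160 to 184 in Ctrl and 116 to 125 in cKO libraries, so that every mutant library lay below its controls. These counts cover the whole gene and not exon 3 alone. *Chd8* counts were higher in mild hypomorphs than in heterozygotes (log2 fold change 0.33 ± 0.04 SE, edgeR adjusted p = 0.00897). The authors reported the reverse order for CHD8 protein, and for *Chd8* transcripts by RT-PCR at an earlier stage. The source of this difference was not tested. Summed over 9 forebrain markers such as *Pax6* and *Emx2*, levels were 1522 to 1939 CPM at E12.5 and 934 to 1109 at E10.5. Blood markers were present in all libraries, and their sum was higher in *Chd8* neo/- (4541 to 7040 CPM over 9 genes) than in *Chd8* +/+ libraries (3259 to 3967). Gene by gene 7 of the 9 were higher and 2 lower, with log2 fold changes from -0.84 to 1.7. An adjusted p under 0.05 was passed by 3, all higher, where 5.48% of all genes tested were higher at this threshold. Bulk RNA does not separate fewer cells of a type from less RNA per cell.

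The starts of the genes on which the results turn are shown first, because the start carries the TOP motif. RefSeq promoters (build GRCm38.p6, 250 bases before and 50 after an annotated start, the first listed for each gene) were at hand for 60 of the 84 genes. The 60 bases around the start are printed 5′ to 3′ on the gene's strand, 30 before it and 30 from it on; capitals mark the longest run of at least 6 pyrimidines that begins with C between 10 bases before and 30 after the start.
Rpl26 (chr11:68901536-68901595, plus strand): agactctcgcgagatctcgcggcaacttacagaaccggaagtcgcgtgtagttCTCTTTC
Rpl11 (chr4:136053364-136053423, minus strand): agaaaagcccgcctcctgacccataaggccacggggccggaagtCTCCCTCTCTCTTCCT
Rps27 (chr3:90213619-90213678, minus strand): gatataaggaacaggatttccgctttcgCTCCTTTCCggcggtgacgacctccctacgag
Rps27l (chr9:66946056-66946115, plus strand): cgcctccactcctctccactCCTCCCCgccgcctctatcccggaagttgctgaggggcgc
Rpl22l1 (chr3:28805478-28805537, plus strand): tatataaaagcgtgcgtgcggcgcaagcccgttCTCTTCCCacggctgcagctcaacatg
Rpl35a (chr16:33056423-33056482, plus strand): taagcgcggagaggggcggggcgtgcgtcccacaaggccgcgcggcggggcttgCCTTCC
Rplp2 (chr7:141447621-141447680, plus strand): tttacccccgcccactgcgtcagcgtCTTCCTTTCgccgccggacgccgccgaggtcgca
Rps2 (chr17:24720033-24720092, plus strand): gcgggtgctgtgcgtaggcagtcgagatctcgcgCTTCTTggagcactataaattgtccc
Rplp0 (chr5:115559437-115559496, plus strand): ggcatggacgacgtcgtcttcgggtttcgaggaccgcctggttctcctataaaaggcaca
Rpl7l1 (chr17:46782627-46782686, minus strand): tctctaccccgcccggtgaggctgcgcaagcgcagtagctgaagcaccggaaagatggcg

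Such a run was found in 38 of the 60 promoters (63.3%), against 27.5% of 27025 mouse promoters of the same length. *Rpl11*, *Rpl26* and *Rps27*, for example, had runs of 16, 7 and 9 pyrimidines within the window, and none was found at the starts listed for *Rplp0* and *Rpl7l1*. The runs of *Rpl11*, *Rpl26* and *Rpl35a* reach the end of the window and may be longer. The letters CCGGAAG, on either strand and anywhere in the 300 bases, were in 24 of the 60 (40%) and in 9.1% of all promoters; they are the core that ETS factors bind. Annotated starts can lie some bases away from the base at which transcription begins, so that a missing run says only that it is not in this window. For the same reason a run found here is not shown to be a TOP start. That of *Rps27l*, for example, lies before the annotated start.

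Together the 84 genes took up 2.76 to 3.3% of the scaled counts at E12.5 and 4.27 to 5.04% at E10.5. In *Chd8* +/+ libraries the share was 3.02% ± 0.27, against 3% ± 0.15 in heterozygotes, 3.08% ± 0.09 in mild and 3.13% ± 0.07 in severe hypomorphs (SD, n = 3 each). No mutant genotype differed from *Chd8* +/+ beyond the spread of the controls (exact permutation test, two-sided, p = 1, 0.8 and 0.6, where 0.1 is the smallest p that 3 against 3 libraries allow). At E10.5 the share was 4.59% ± 0.4 in Ctrl and 4.4% ± 0.12 in cKO libraries (n = 3 each, exact permutation p = 0.8).

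The control libraries were the most spread. *Chd8* +/+ replicate 1 had the lowest level of the 3 controls for 83 of the 84 genes and replicate 2 the highest for 78, with median log2 deviations from the mean over the 12 libraries of -0.15 and 0.11. Ctrl replicate 1 was the highest Ctrl library for 83 of the 84 genes, with a median deviation of 0.20 against -0.02 and -0.01 in the other Ctrl libraries. Because the genes move together from library to library, comparisons are given below with and without these libraries.

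**Figure D1:**
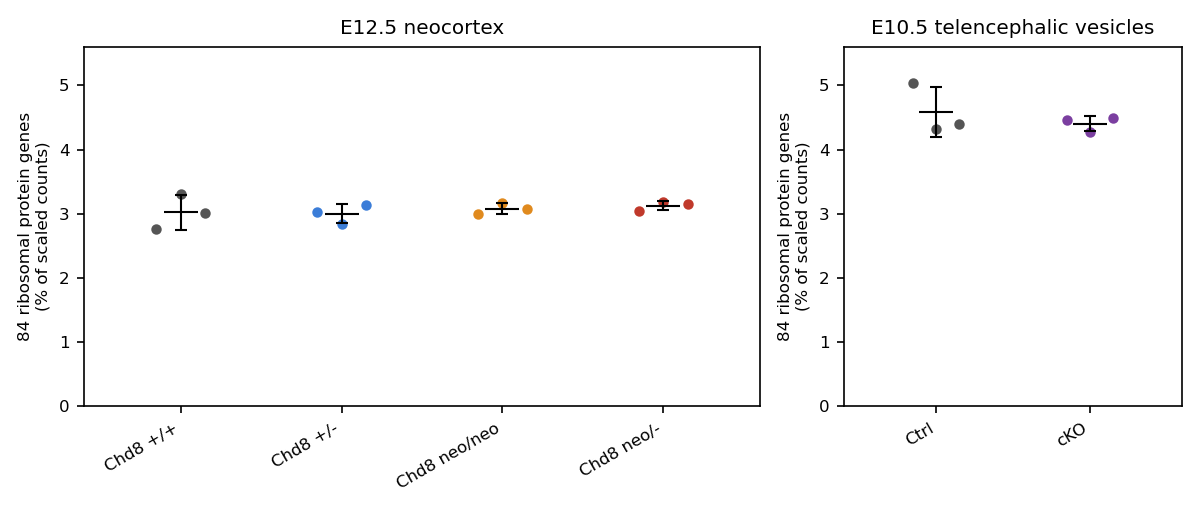
Share of the scaled counts of each library taken by the 84 ribosomal protein genes (y axis, %), by group (x axis) at E12.5 (left) and E10.5 (right). Points are libraries and bars are the mean ± SD of 3. *Chd8* +/+ libraries span 2.76 to 3.3% and enclose every mutant library at E12.5, and Ctrl replicate 1 stands at 5.04%.

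Levels of single genes were compared per kb of annotated exon. At E12.5 the 84 genes ranged from 1.64 to 923 CPM per kb with a median of 203, and at E10.5 from 11.5 to 1622 with a median of 310. *Rps26*, a small subunit protein at the mRNA exit, had the highest level at E12.5 (923 CPM per kb), followed by the stalk protein gene *Rplp1* (854), *Rpl4* (736), *Rps12* (721) and *Rps15* (700). The lowest levels were those of the copies *Rps3a3* (1.64), *Rpl6l* (8.21) and *Rps3a2* (36.9), of *Rpl24* (12.3) and of *Rpl22l1* (20), the paralog of *Rpl22*. At E10.5 *Rplp1* was highest (1622), and the same 5 genes were lowest. The levels of *Rps26* and *Rplp1* at E12.5 rest on exons of 447 and 495 bases. Exon length joins all annotated exons of a gene and can exceed its main transcript. For *Rpl22* it was 2911 against 474 bases, for *Rpl22l1* 1989 against 552 and for *Rps15a* 6262 against 640. For *Rps26* it was shorter than the main transcript of 681 bases. Ranks per kb therefore depend in part on the annotation.

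Levels were mostly higher at the earlier stage. Of the 84 genes, 83 had a higher mean CPM at E10.5 than at E12.5, and the median log2 ratio was 0.56. Stage, dissected region, pooling and counting run changed together between the tables, so that the values are set side by side without a test. *Rps3a3* went from 1.3 CPM at E12.5 to 11.2 at E10.5, *Rps27l* from 50.1 to 135 and *Rpl22l1* from 39.7 to 73.6. The order of the genes was similar at both stages (Pearson r = 0.97 over the 84 log2 levels per kb, a description across genes that share exon lengths).

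Paralogs and tissue variants differed in whether they were used at all. *Rpl10l*, a retrogene known from testis, had no count in any library. *Rpl3l*, the muscle paralog of *Rpl3*, averaged 1.3 counts per library at E12.5 and 3.5 at E10.5, and *Rpl39l*, the germ line paralog of *Rpl39*, 3 and 4 counts. Their usual copies *Rpl10*, *Rpl3* and *Rpl39* stood at 213, 227 and 63.4 CPM per kb at E12.5. By contrast *Rps27l* was at 61.4 and 166 CPM per kb at E12.5 and E10.5 beside *Rps27* at 201 and 248, and *Rpl22l1* at 20 and 37 beside *Rpl22* at 87.2 and 145. The distance between such pairs per kb depends on the exon lengths described above.

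Many of these genes share sequence with copies elsewhere, which bears on how far their counts stand for 1 gene. Words of 75 bases, the length of the reads, were read along the main annotated transcript of each gene and looked for in the transcripts of all other annotated genes. A median of 50.1% of the words of a gene was found elsewhere, 42 of the 84 genes shared at least 50%, and 11 shared under 10%. *Rps27* shared 98.5%, all of it with the retrocopy *Rps27rt*, whereas *Rps27l* shared 12%, *Rpl7l1* 3.9% and *Rps4l* 6.7%. Reads with several equal alignments were not counted at E12.5, so that levels of the first kind are uncertain. In addition, 30 genes had exon bases inside another gene's exons, and 8 had at least 20% of them there. For *Rpl24* this was 47%, within *Gm28037*, which had no count in any library; at E12.5 a read inside exons of more than 1 gene was assigned to none of them.

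Loss of 1 copy of *Chd8* left these genes without a detected change. None of the 84 passed an adjusted p of 0.05 in *Chd8* +/- against *Chd8* +/+ libraries with edgeR or with DESeq2, where 0.0213% of the 18810 genes tested passed with edgeR. At an unadjusted p under 0.05 there were 2 of the 84, against 6.33% of all genes. The log2 fold changes lay between -0.13 and 0.33 with a median of -0.004, beside 0.001 over all genes. The highest value was that of the *Rps4l* copy (0.33 ± 0.11 SE, adjusted p = 0.649).

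In *Chd8* neo/neo neocortex 5 of the 84 genes rose and 1 fell against *Chd8* +/+. Those that rose were *Rps4l*, *Rpl35a*, *Rpl36*, *Rplp2* and *Rpl7l1*. Over all genes tested 3.71% rose and 4.45% fell, so that the share of the 84 that rose was somewhat above this background and the share that fell below it. The median log2 fold change of the 84 was 0.036 (0.005 over all genes), with 60 above 0. Without *Chd8* +/+ replicate 1 the median was -0.033 and 1 gene rose and 2 fell, and without *Chd8* neo/neo replicate 2 none passed. Without *Chd8* +/+ replicate 3, or with these 6 libraries alone in the fit, 1 gene passed in each case.

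In *Chd8* neo/- neocortex 6 of the 84 rose and 1 fell against *Chd8* +/+, where 5.48% of all genes rose and 5.99% fell; the share that rose was near the background and the share that fell below it. *Rps4l*, *Rpl35a*, *Rpl36*, *Rps27l*, *Rpl34* and *Rpl7l1* were those that rose. The median log2 fold change was 0.057 (0.001 over all genes), with 64 above 0 and 20 below. Without *Chd8* +/+ replicate 1 the median was -0.007 and 2 genes rose and 3 fell, and without replicate 2 it was 0.125 and 13 rose. After correction of each library for the length and GC content of the genes, 2 rose and 2 fell and the median was -0.007. Both hypomorphs were compared with the same 3 *Chd8* +/+ libraries, and their values are therefore not independent of each other.

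The largest rise among the 84 was that of *Rps4l* (ENSMUSG00000063171, chr6:148354656-148355598, plus strand, GRCm38), a single-exon copy of *Rps4x* that lies between exons of *Tmtc1* on the opposite strand. It had 25.3, 31.5 and 27.7 CPM in *Chd8* +/+ libraries, 35.3, 36.6 and 34.2 in *Chd8* +/-, 31.8, 45 and 41.8 in mild and 51.4, 48.3 and 49.8 in severe hypomorphs. All *Chd8* neo/- libraries lay above every other library at this stage, and all mutant libraries above all controls. The log2 fold change was 0.82 ± 0.11 SE in *Chd8* neo/- (adjusted p = 9.07e-04) and, in *Chd8* neo/neo, 0.49 ± 0.11 (adjusted p = 0.0211), and the first was called in all 17 alternative analyses. The second call was lost in 5 of 17. Counting ignored strand at E12.5, so that reads from the *Tmtc1* strand cannot be told apart from those of *Rps4l*; *Tmtc1* itself changed by a log2 value of -0.28 in *Chd8* neo/- (adjusted p = 0.26). The parent gene *Rps4x* was at -0.09 (adjusted p = 0.408), and *Rps4l* at 0.13 in cKO libraries (adjusted p = 0.258).

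*Rpl35a* encodes a large subunit protein mutated in some patients with Diamond-Blackfan anaemia. It had 143, 173 and 155 CPM in *Chd8* +/+, 176, 166 and 181 in *Chd8* +/-, 178, 201 and 197 in mild and 201, 216 and 208 in severe hypomorphs. Levels in both hypomorphs lay above those of all controls, and those in *Chd8* +/- overlapped with them. The log2 fold change was 0.29 ± 0.07 SE in mild (adjusted p = 0.0176) and 0.41 ± 0.07 in severe hypomorphs (adjusted p = 0.00162), the second called in all 17 alternatives. The call in mild hypomorphs was lost in 4 of 17. In cKO libraries the log2 fold change was -0.12 (adjusted p = 0.364). Other genes mutated in this anaemia (*Rps7*, *Rps10*, *Rps19*, *Rps24*, *Rps26*, *Rpl5*, *Rpl11* and *Rpl26*) were called in no comparison.

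*Rpl36* and *Rpl34*, also of the large subunit, followed with smaller changes. *Rpl36* had 86.9, 108.3 and 93.2 CPM in *Chd8* +/+, 110, 121 and 118 in mild and 117, 124 and 114 in severe hypomorphs. The lowest hypomorph library was just above the highest control, and the log2 fold changes were 0.27 ± 0.07 (adjusted p = 0.0388) and 0.30 ± 0.07 (adjusted p = 0.0197). *Rpl34* rose by 0.23 ± 0.06 in *Chd8* neo/- (adjusted p = 0.0314), where its libraries stood at 207, 207 and 209 CPM above controls at 160, 196 and 173. The *Rpl36* call was lost in 10 of 17 alternatives in mild and in 6 in severe hypomorphs, and the *Rpl34* call in 8. With length and GC correction *Rpl36* was at 0.14 (adjusted p = 0.331) and 0.19 (adjusted p = 0.184), and *Rpl34* at 0.19 (adjusted p = 0.125).

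The acidic stalk proteins P1 and P2, anchored by P0, recruit elongation factors to the large subunit. *Rplp2*, for P2, had 183, 180 and 179 CPM in *Chd8* +/+, 180, 177 and 189 in *Chd8* +/-, 210, 232 and 206 in mild and 196, 218 and 190 in severe hypomorphs. Both hypomorphs stood above both other genotypes without overlap. In *Chd8* neo/neo the log2 fold change was 0.26 ± 0.06 and was called (adjusted p = 0.0153), whereas that of 0.16 ± 0.06 in *Chd8* neo/- missed the threshold (adjusted p = 0.0876); the difference between these genotypes was not called. It was also the only gene of the 84 called in *Chd8* neo/neo against *Chd8* +/- (0.25 ± 0.06, adjusted p = 0.0279), a comparison in which 5.28% of all genes passed and in which the call was lost in 8 of 17 alternatives. *Rplp0* and *Rplp1* were at 0.02 and 0.04 in mild and at 0.10 and 0.04 in severe hypomorphs, and neither was called.

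*Rpl7l1* is a paralog of *Rpl7* with a part in the assembly of the large subunit. Its controls were very close together at 131, 132 and 132 CPM, and its levels were 148, 147 and 140 CPM in mild and 147, 149 and 146 in severe hypomorphs. This rise of 0.14 ± 0.04 and 0.16 ± 0.04 (adjusted p = 0.0491 and 0.0229) was the smallest called, and it was lost in 14 and 8 of 17 alternatives. *Rpl7* was at 0.06 and 0.12 and was not called.

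**Figure D2:**
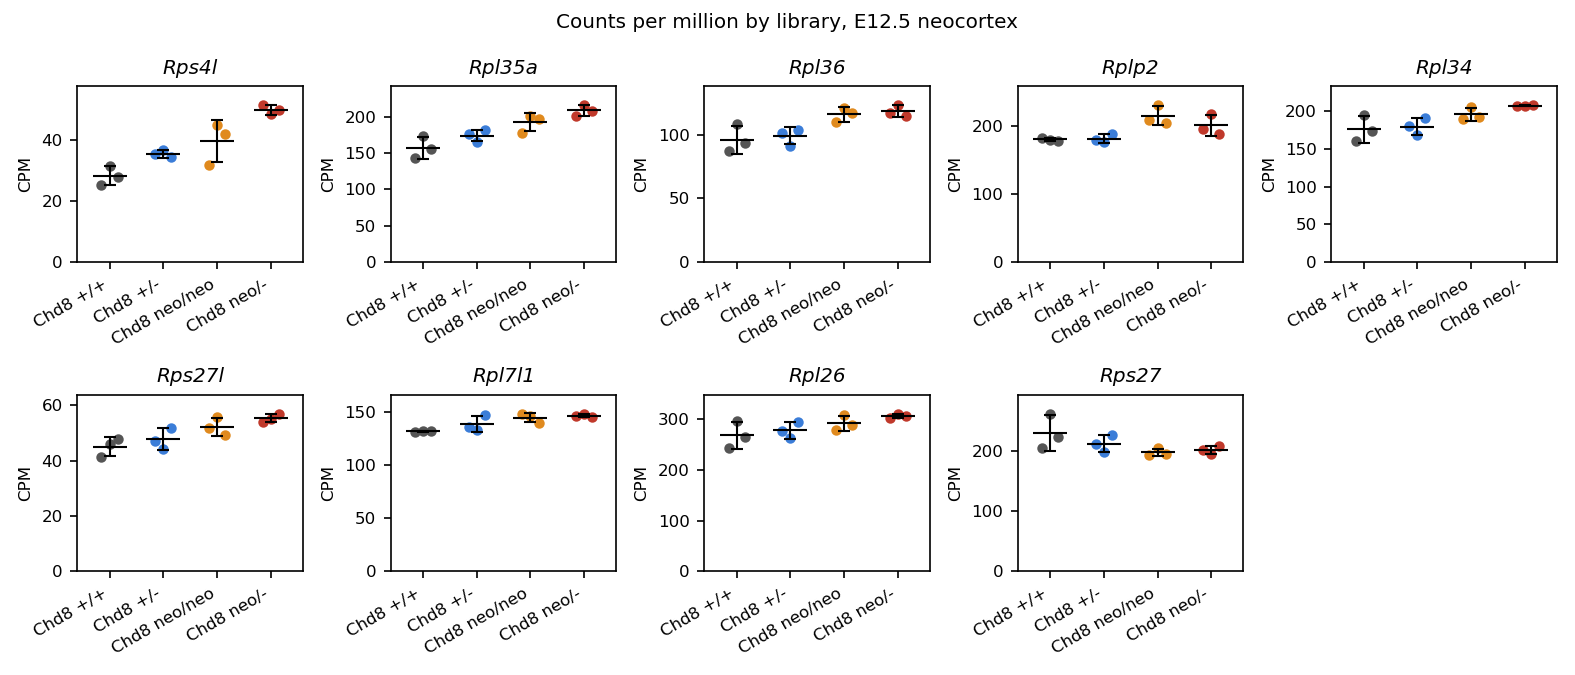
Levels by library (y axis, CPM, from 0) of the 7 genes that rose in a hypomorph and of *Rpl26* and *Rps27*, in the 4 genotypes (x axis) at E12.5. Points are libraries and bars are the mean ± SD of 3; *Rps4l* reaches 51.4 CPM in *Chd8* neo/- against at most 31.5 in *Chd8* +/+.

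*Chd8* neo/- and *Chd8* neo/neo libraries did not differ in any of the 84 genes at an adjusted p of 0.05, with edgeR or DESeq2. Over all genes 0.0159% passed. At an unadjusted p under 0.05 there was 1 of the 84 (*Rps4l*, 0.33 ± 0.11), against 8.43% of all genes. The median log2 difference was 0.021.

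*Rpl26* encodes a large subunit protein at the rim of the exit tunnel that also binds the *Trp53* mRNA. It had 243, 297 and 266 CPM in *Chd8* +/+, 277.8, 262 and 295 in *Chd8* +/-, 278.6, 308 and 289 in mild and 304, 311 and 307 in severe hypomorphs. The *Chd8* neo/- libraries lay above all controls by a narrow margin, and the other genotypes overlapped with them. The log2 fold changes were 0.05 ± 0.07 (adjusted p = 0.948), 0.12 ± 0.07 (0.268) and 0.20 ± 0.07 (0.0691) in the order *Chd8* +/-, *Chd8* neo/neo and *Chd8* neo/-. At E10.5 it had 438, 347 and 374 CPM in Ctrl and 376, 355 and 381 in cKO libraries, which overlapped (-0.06 ± 0.08, adjusted p = 0.685). Of its words 57.5% occur in other genes, most of them in the copy *Gm15772* (42.3 CPM at E12.5).

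The other ribosomal proteins that bind MDM2 or *Trp53* mRNA were described together with it. In a list of 8 (*Rpl5*, *Rpl11*, *Rpl23*, *Rpl26*, *Rps3*, *Rps7*, *Rps27* and *Rps27l*) none was called in *Chd8* +/- or *Chd8* neo/neo, *Rps27l* rose in *Chd8* neo/-, and in cKO libraries *Rps27l* rose and *Rps27* fell. That was 12.5% of the 8 in *Chd8* neo/- and 25% in cKO libraries, against 11.47% and 11.45% of all genes tested. *Rpl5* was at 0.05 in *Chd8* neo/- and 0.01 in cKO libraries, *Rpl11* at 0.11 and -0.16, and *Rpl23* at 0.05 and -0.25 (adjusted p = 0.0528 for the last). Medians of the 8 were 0.07 in *Chd8* neo/- and -0.17 in cKO libraries.

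At E10.5 most of the genes called were lower in the conditional knockout. In cKO against Ctrl libraries 3 of the 84 genes rose (*Rps27l*, *Rplp0*, *Rps2*) and 10 fell (*Rpl22l1*, *Rpl24*, *Rps3a3*, *Rps27*, *Rps3a2*, *Rpl37a*, *Rps4x*, *Rpl37*, *Rps3a1* and *Rps15a*). Over the 18435 genes tested 5.75% rose and 5.7% fell, so that the share of the 84 that fell was above the background and the share that rose below it. The median log2 fold change was -0.112 (-0.002 over all genes), with 65 of the 84 below 0. Of the 49 large subunit genes 1 rose and 4 fell (median -0.12), and of the 35 small subunit genes 2 rose and 6 fell (median -0.08). The size of the list's shift rests on Ctrl replicate 1: without it the median was -0.03 and 3 genes rose and 5 fell, whereas without Ctrl replicate 2 it was -0.148 and 3 rose and 17 fell. Without any 1 cKO library 4 to 6 genes passed, and without Ctrl replicate 3 it was 8.

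*Rpl22l1* (ENSMUSG00000039221, chr3:28805436-28807424, plus strand, GRCm38) had the largest change. It encodes a paralog of the RNA-binding large subunit protein RPL22, which is known to repress it. It had 99.8, 92.5 and 90.4 CPM in Ctrl and 54.9, 51.7 and 52.4 in cKO libraries. The groups were far apart and each was tight, and the log2 fold change was -0.83 ± 0.06 SE (adjusted p = 3.03e-05), called in all 15 alternatives. *Rpl22* had 479, 418 and 427 CPM in Ctrl and 413, 389 and 412 in cKO libraries, a difference of -0.12 ± 0.07 that was not called (adjusted p = 0.258). At E12.5 *Rpl22l1* was between 35.6 and 42.8 CPM in all 12 libraries, with log2 fold changes of -0.01, 0.03 and 0.05. Shared sequence is a limit here, since 49% of its words occur in the copy *Gm15421*; that copy, at 5.7 CPM, was also lower in cKO libraries (-0.82, adjusted p = 0.00161).

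*Rps27* and *Rps27l* moved apart. *Rps27l*, a paralog whose gene is a direct p53 target, had 122.7, 116 and 106 CPM in Ctrl and 154, 149 and 163 in cKO libraries. *Rps27* had 334, 273.4 and 282.4 CPM in Ctrl and 223, 212 and 227 in cKO libraries. In neither gene did the groups overlap, and the log2 fold changes were 0.43 ± 0.07 (adjusted p = 0.00289) and -0.43 ± 0.08 (adjusted p = 0.00641), both called in all 15 alternatives. The log2 ratio of *Rps27l* to *Rps27* was 0.86 higher in cKO libraries (exact permutation p = 0.1, the smallest possible, n = 3 each). At E12.5 the same ratio was higher than in *Chd8* +/+ by 0.20 in *Chd8* +/-, 0.43 in mild and 0.48 in severe hypomorphs, each without overlap (exact permutation p = 0.1).

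In the *Chd8* neo/- libraries *Rps27l* stood at 53.9, 55.2 and 56.9 CPM above *Chd8* +/+ libraries at 41.2, 46 and 47.7. The log2 fold change was 0.30 ± 0.07 (adjusted p = 0.0134), and it lay between 0.20 and 0.35 over the 17 alternatives. The call was lost in 4 of them, with length and GC correction (0.20, adjusted p = 0.163), with the replicate block added to it (0.21, adjusted p = 0.154), without *Chd8* neo/- replicate 3 (0.28, adjusted p = 0.0565) and without *Chd8* +/+ replicate 1 (0.23, adjusted p = 0.0569). *Rps27* was at -0.19 ± 0.08 in *Chd8* neo/- (adjusted p = 0.125). *Rps27l* was thus the only 1 of the 84 called in both *Chd8* neo/- and cKO. Other direct p53 targets, in a list of 10, rose together in cKO libraries (10 of 10; *Phlda3* 2.47 ± 0.10, *Zmat3* 1.47 ± 0.09, *Eda2r* 3.76 ± 0.19), 2 of 10 in *Chd8* neo/- and none in *Chd8* neo/neo, where 1 fell. Over all genes tested 5.75% rose in cKO and 5.48% in *Chd8* neo/- libraries, and 4.45% fell in *Chd8* neo/neo libraries. The retrocopy *Rps27rt*, which shares nearly all words of *Rps27*, had 4.86 CPM at E10.5 and was also lower in cKO libraries (-0.74, adjusted p = 0.00279).

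*Rplp0*, the P0 anchor of the stalk, and *Rps2*, at the entrance of the mRNA channel, were the other genes that rose in cKO libraries. *Rplp0* had 1623, 1456 and 1452 CPM in Ctrl and 1891, 1852 and 1960 in cKO libraries, so that the groups were apart although Ctrl replicate 1 was high. The log2 fold change was 0.33 ± 0.07 (adjusted p = 0.0116). *Rps2* had 1431, 1337 and 1279 CPM against 1692, 1561 and 1610, a rise of 0.27 ± 0.07 (adjusted p = 0.0285). The *Rplp0* call was lost in 3 of 15 alternatives and the *Rps2* call in 4, always with a library left out. *Rplp1* and *Rplp2* were at 0.09 and 0.05 and were not called. *Rps2* was at 0.17 in mild and 0.15 in severe hypomorphs, without overlap but not called (adjusted p = 0.07 and 0.0838).

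Among the genes that fell, 3 form a family of near copies. *Rps3a1* is the functional gene of a small subunit protein, and *Rps3a2* and *Rps3a3* are its processed pseudogenes. *Rps3a1* had 951, 824 and 835 CPM in Ctrl and 695, 698 and 725 in cKO libraries (-0.30 ± 0.07, adjusted p = 0.0203). *Rps3a2* had 47.2, 43.8 and 38.3 against 31.4, 35 and 34.2 (-0.36 ± 0.08, adjusted p = 0.021), and *Rps3a3* 14.2, 11.8 and 12.9 against 8.97, 10.6 and 9.13 (-0.43 ± 0.10, adjusted p = 0.023). All 3 were without overlap between the groups. Their calls were lost in 3, 5 and 4 of 15 alternatives, in this order. Since 65.5% of the words of *Rps3a2* are those of *Rps3a1* and 43.3% of those of *Rps3a3* are in *Rps3a2*, reads of the 3 cannot be fully told apart.

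*Rps4x*, X-linked and the usual copy of *Rps4l*, had 1108, 933 and 951 CPM in Ctrl and 780, 787 and 800 in cKO libraries (-0.34 ± 0.07, adjusted p = 0.016). The cKO libraries were within a narrow range and all below Ctrl, and the call was lost in 3 of 15 alternatives. *Rpl24* fell from 26.9, 23.1 and 22.4 to 18.7, 16.1 and 18.4 CPM (-0.44 ± 0.10, adjusted p = 0.0146) and was called in 14 of 15 alternatives, within the limit on its counts given above. *Rpl37a* (-0.34 ± 0.09), *Rpl37* (-0.32 ± 0.09) and *Rps15a* (-0.24 ± 0.07), with adjusted p of 0.0302, 0.0493 and 0.0375, completed the genes that fell, and each had no overlap between the groups. *Rpl37* was the weakest, with 8 of 15 alternatives called, and the calls of *Rpl37a* and *Rps15a* were lost in 4 and 5. The *Rpl37* copy *Rpl37rt*, with 32.6 CPM, was also lower (-0.38, adjusted p = 0.0206).

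**Figure D3:**
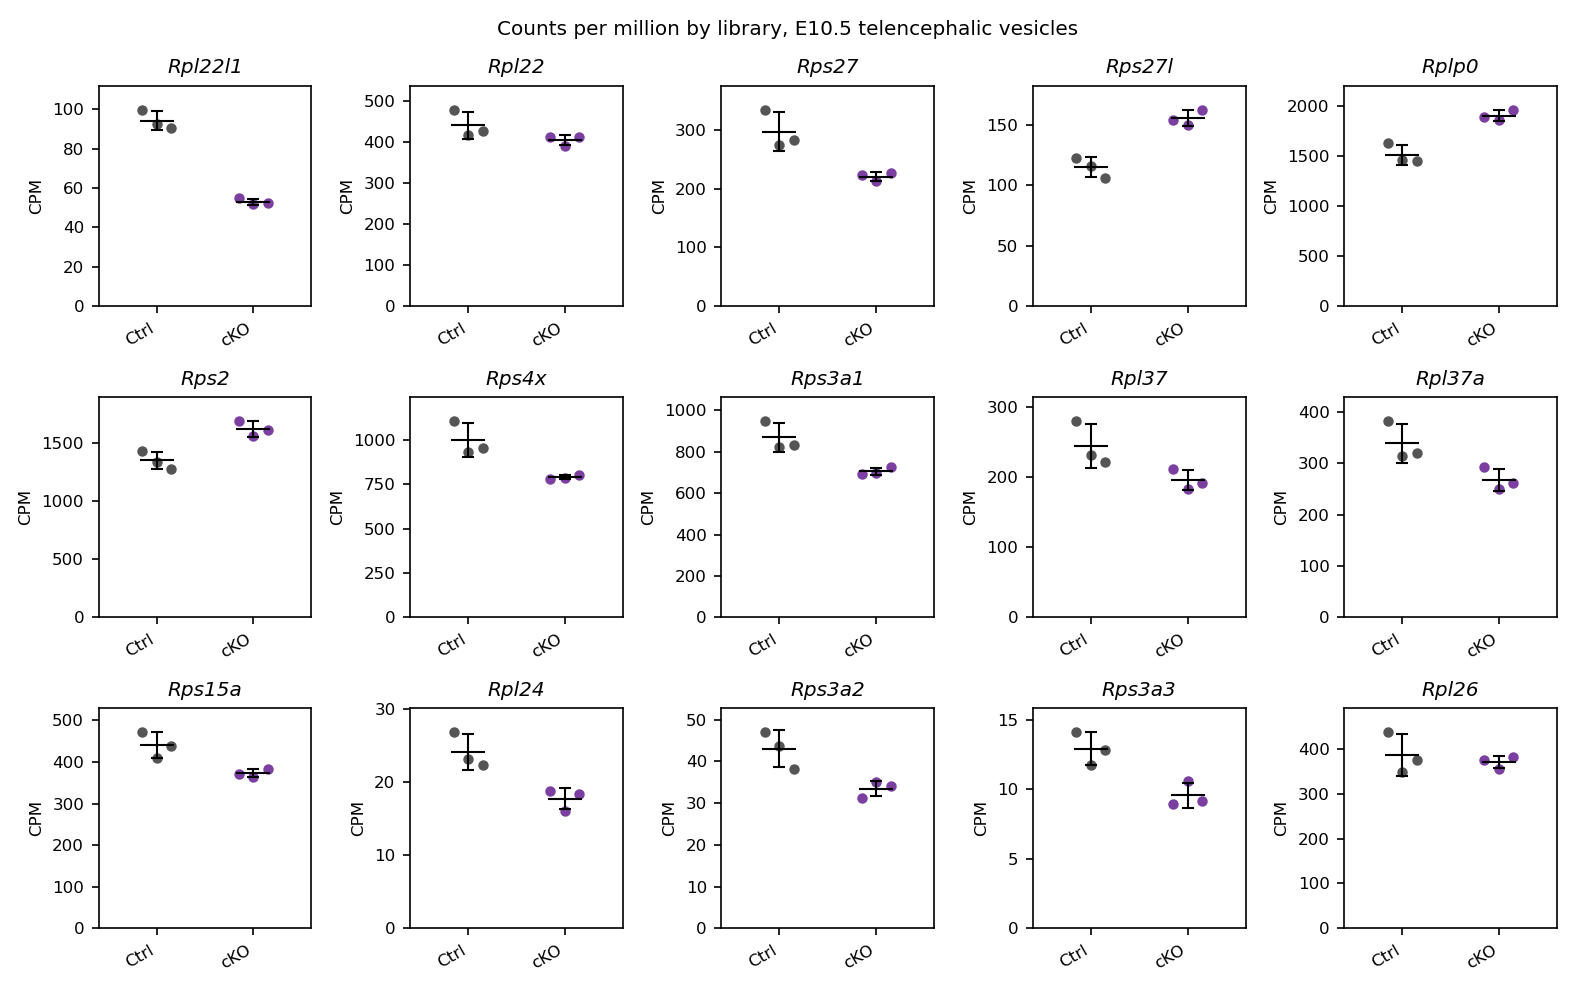
Levels by library (y axis, CPM, from 0) of the 13 genes called at E10.5 and of *Rpl22* and *Rpl26*, in Ctrl and cKO (x axis). Points are libraries and bars are the mean ± SD of 3; *Rpl22l1* is at 90.4 to 99.8 CPM in Ctrl and 51.7 to 54.9 in cKO, and Ctrl replicate 1 (the left point) is the highest Ctrl library in every panel.

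Other measures moved with the cKO group. Summed transcripts of mitochondrial DNA were 7561 to 9588 CPM in Ctrl and 10190 to 19490 in cKO libraries, and 7 mesenchyme markers 687 to 770 against 855 to 1050 CPM, with 3 of 7 called higher. Sums over 6 endothelial markers (194 to 209 in Ctrl and 210 to 251 CPM in cKO libraries) and over 6 microglia markers (21.4 to 25.3 and 27.2 to 28.9 CPM) also did not overlap, with 1 of 6 called higher in each list. Over all genes tested 5.75% were called higher. Epidermal markers (29.1 to 57 and 39.7 to 68.3 CPM) and blood markers overlapped (blood 3418 to 5566 in Ctrl and 3228 to 5099 CPM in cKO libraries), as did forebrain markers. Their part in the changes of the ribosomal protein genes was not tested.

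The severe hypomorph and the cKO share no library, and their values were set side by side. Of the 84 genes 17 were above 0 in both, 18 below 0 in both, 47 above 0 in *Chd8* neo/- and below 0 in cKO, and 2 the reverse. Pearson's r over the 84 log2 fold changes was 0.35, a description across genes that move together within each library. The centre of the list, slightly above 0 at E12.5 and below 0 at E10.5, is the quantity that the high and low control libraries move.

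**Figure D4:**
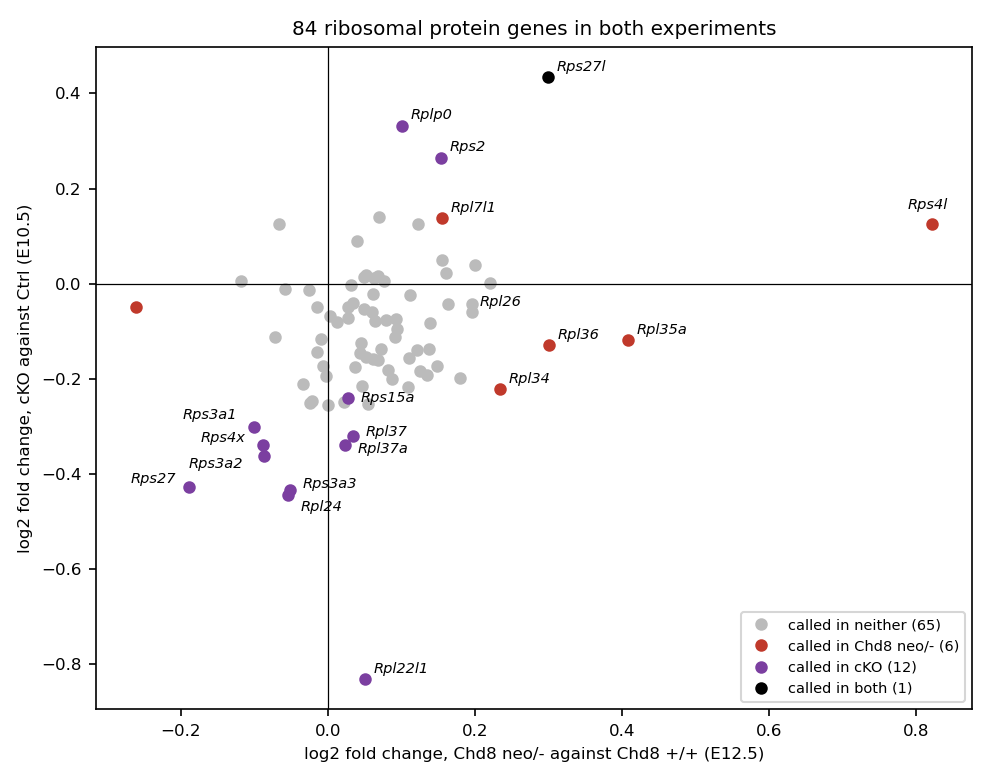
Log2 fold change of each of the 84 genes in *Chd8* neo/- against *Chd8* +/+ (x axis) and in cKO against Ctrl (y axis). Colours mark the 6 genes called in *Chd8* neo/- alone, the 12 in cKO alone, *Rps27l* in both and the 65 in neither; *Rps4l* lies at 0.82 on the x axis and *Rpl22l1* at -0.83 on the y axis.

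Genes with little and with much shared sequence were among those called. Among the 42 genes with under 50% of their words elsewhere, 4 rose and 1 fell in *Chd8* neo/neo, 5 rose and 1 fell in *Chd8* neo/-, and 2 rose and 4 fell in cKO libraries, with medians of 0.034, 0.053 and -0.071. By promoter, the 38 genes with a pyrimidine run had a median of -0.11 in cKO libraries (2 rose and 4 fell) and the 22 without a run -0.08 (1 rose and 4 fell). In *Chd8* neo/- the medians were 0.06 and 0.04. Over all genes tested 3.71% rose and 4.45% fell in *Chd8* neo/neo, and 5.48% rose and 5.99% fell in *Chd8* neo/-. In cKO libraries 5.75% of all genes rose and 5.7% fell.

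**Figure D5:**
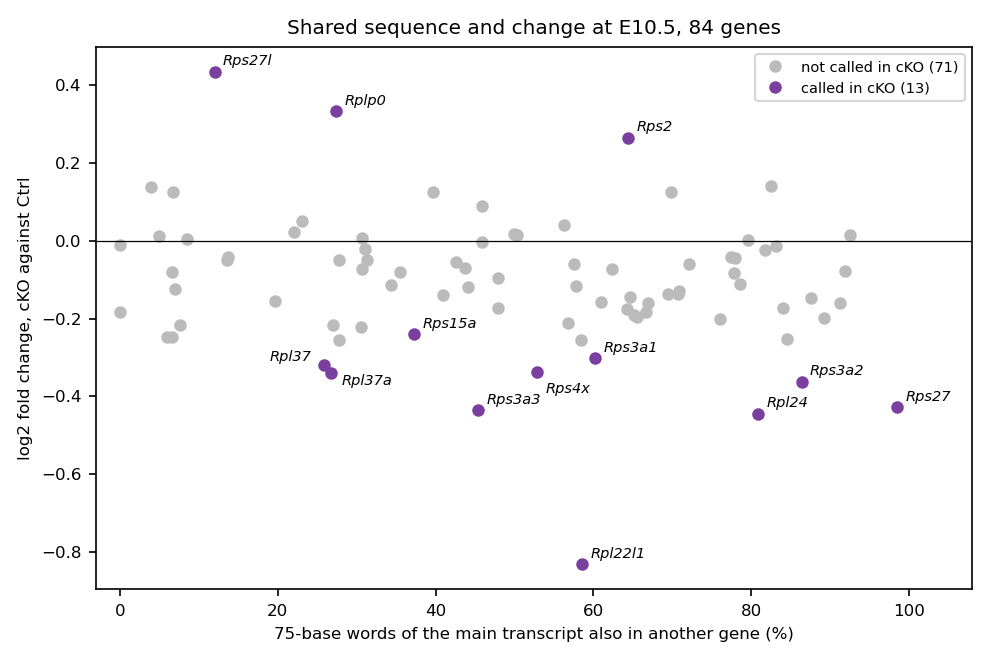
Share of the 75-base words of each gene's main transcript that occur in other annotated genes (x axis, %) against its log2 fold change in cKO libraries (y axis). Purple points are the 13 genes called and grey points the 71 others; called genes range from *Rps27l* at 12% to *Rps27* at 98.5%.

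Genes of the same system outside the 84 gave the setting. Of 20 other mRNAs with a TOP start, such as those for elongation factors, 2 fell in *Chd8* neo/- (*Hnrnpa1* -0.18 ± 0.05 and *Eef1b2* -0.18 ± 0.05), and in cKO libraries 3 rose and 1 fell (*Eef2* 0.32 ± 0.07, *Pabpc1* 0.39 ± 0.10 and *Naca* -0.27 ± 0.07 among them). Their medians were -0.02 and 0.01. In these comparisons 10% and 20% of the 20 were called, against 11.47% and 11.45% of all genes tested. *Fau*, *Rpl36al* and *Rack1*, which encode ribosomal proteins but were not matched by symbol, were called in no comparison. Of 51 genes for ribosome assembly 5 rose and 1 fell in *Chd8* neo/neo, 6 rose and 3 fell in *Chd8* neo/-, and 3 rose and 4 fell in cKO libraries. These were 11.76%, 17.65% and 13.73% of the 51, against 8.16%, 11.47% and 11.45% of all genes tested. Examples are *Rrp9*, of the U3 particle (0.28 ± 0.05 in mild and 0.26 ± 0.05 in severe hypomorphs), *Nhp2* (0.27 ± 0.06 and 0.36 ± 0.06) and, in cKO libraries, *Taf1b* of the RNA polymerase I initiation factor (-0.76 ± 0.08, adjusted p = 2.4e-04). None of the genes of these lists was called in *Chd8* +/-.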

How the data were processed

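The authors sequenced mRNA as paired reads of 75 bases; the processing notes and methods name Trim Galore 0.4.1, TopHat2 2.1.0 on GRCm38 and featureCounts 1.5.0. The deposited values are raw counts per gene and run, not normalised; 2 runs per library were summed. At E12.5 the file header shows pairs counted without strand and reads with several alignments left out; the E10.5 call is not given in the sources used here. Of 46603 identifiers, 46005 matched a symbol.

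In R 4.3.3, edgeR 4.0.16 (filterByExpr, TMM, robust quasi-likelihood test, Benjamini-Hochberg adjustment over all genes tested, calls at an adjusted p under 0.05) was fitted to the 12 E12.5 libraries by genotype and separately to the 6 E10.5 libraries, after tests on simulated data. According to the methods replicates came from different litters. Replicate numbers paired *Chd8* +/- and *Chd8* neo/neo libraries (correlations of deviations 0.108, 0.195 and 0.199), without a named source; a replicate block left the 1 call there in place.

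The members, gene lists and rule for named genes (the largest called changes without overlap, paralogs, stalk, p53-binding proteins, extremes of level) were chosen with earlier results of these data known; *Rpl37*, *Rpl37a*, *Rps3a1*, *Rps15a* and copies sharing sequence were added after their values were seen. Some genes that the rule would name are not reported here. Alternatives were DESeq2 1.42.0, RLE and upper quartile scaling, no filter, replicate blocks, length and GC correction (loess, span 0.5), single runs, the compared groups alone, *Xist* as a term, and each library left out.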

Additional observations from a re-analysis of the deposited data

How the results depend on the processing

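The count of ribosomal protein genes called was 0 in every alternative for *Chd8* +/- against *Chd8* +/+ and for *Chd8* neo/- against *Chd8* neo/neo. For *Chd8* neo/neo against *Chd8* +/+ the 6 calls became 10 with DESeq2, 3 without a filter on low counts, 1 with only the 2 groups compared, 2 with a replicate block and length and GC correction together, and 0 to 7 when a library was left out. For *Chd8* neo/- against *Chd8* +/+ the 7 calls became 11 with DESeq2, 4 with length and GC correction, 3 with the replicate block added to it, and 3 to 13 without a library. For *Chd8* neo/neo against *Chd8* +/- the 1 call became 3 with DESeq2, 2 without a filter, with upper quartile scaling or with run 2 only, 0 with *Xist* as a term, with length and GC correction, with only the 2 groups compared or with block and correction together, and 0 to 2 without a library. For cKO against Ctrl the 13 calls became 21 with block and correction together, and 4 to 20 without a library. With a replicate block alone the counts were 4, 7, 1 and 19 in this order, although no source names the replicate numbers as pairs. The cause of the shifts in these counts was not tested. Counts under alternatives, here and above, stand without the share of all genes called in the same fit. They are therefore not read as a trait of the 84 genes. *Rpl26* changed sign without *Chd8* +/+ replicate 1 in *Chd8* +/- (-0.016, with a range of -0.016 to 0.136 over the libraries left out) and without Ctrl replicate 1 in cKO (0.04, with a range of -0.13 to 0.04), and passed the threshold in *Chd8* neo/- in 2 of 17 alternatives.

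For the 27 called changes, 314 of 433 values under alternatives stayed past the threshold, 119 did not, and none changed sign. With 3 libraries a group, the spread between control libraries limits which changes can be called, and reads shared with copies limit what a gene's count stands for.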

Other observations

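The 77 nuclear genes tested for proteins of the mitochondrial ribosome, a separate ribosome with its own subunits, had medians on the same side of 0 as the cytosolic set in both hypomorphs and in cKO libraries. In *Chd8* neo/neo 7 rose and none fell (median log2 fold change 0.07), in *Chd8* neo/- 14 rose and none fell (median 0.10, 64 above 0), and in cKO libraries none rose and 6 fell (median -0.05). In this order 9.09%, 18.18% and 7.79% of the 77 were called, against 8.16%, 11.47% and 11.45% of all genes tested. In *Chd8* +/- none was called, and 4 had an unadjusted p under 0.05. Their median deviation was also low in *Chd8* +/+ replicate 1 (-0.12) and high in Ctrl replicate 1 (0.14), the libraries that stood apart for the cytosolic genes.

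Within the list of proteins at the exit tunnel rim (*Rpl17*, *Rpl19*, *Rpl22*, *Rpl23a*, *Rpl26*, *Rpl31*, *Rpl35* and *Rpl39*) none of 8 was called in any comparison. All 8 were above 0 in *Chd8* neo/neo and *Chd8* neo/-, with medians of 0.07 and 0.12, and 7 of 8 below 0 in cKO libraries, with a median of -0.09. The 49 large subunit genes leaned the same way, with 39 and 41 above 0 in mild and severe hypomorphs and 37 below 0 in cKO libraries. Over all genes tested 8.16% were called in *Chd8* neo/neo, 11.47% in *Chd8* neo/- and 11.45% in cKO libraries.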
